A study of Mus musculus with 4 samples.

Results

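The genes described here encode the core proteins that place, bind and remove N6-methyladenosine (m6A) on RNA. They are the writers Mettl3, Mettl14 and Wtap, the YTH domain readers Ythdc1, Ythdc2, Ythdf1, Ythdf2 and Ythdf3, and the erasers Alkbh5 and Fto. They were taken by gene symbol, and all 10 were found among the 16861 genes listed in every library. Expression was measured in germinal vesicle (GV) oocytes of 3-week-old female C57BL/6J mice, which are grown oocytes still arrested before meiotic maturation. NSN oocytes (non-surrounded nucleolus) have chromatin spread through the nucleus, and SN oocytes (surrounded nucleolus) have condensed chromatin in a ring around the nucleolus. All oocytes came from antral follicles, were freed of cumulus cells and of the zona pellucida, and were sorted by eye after Hoechst staining of the DNA in medium with milrinone, an inhibitor that holds meiotic arrest, so both groups shared this exposure. The labels name no genetic change. Each configuration had 2 Smart-seq2 libraries of 15 oocytes, a protocol that primes cDNA at the poly(A) tail and amplifies it by PCR. The comparison asks how the transcripts of the m6A machinery differ between the transcriptionally active NSN and the largely silent SN configuration.

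In the m6A pathway, METTL3 is the catalytic subunit that methylates adenosines of nascent RNA, METTL14 holds the RNA substrate, and WTAP anchors both in nuclear speckles. YTHDC1 reads the mark in the nucleus and acts in splicing, polyadenylation and export, whereas the YTHDF proteins and the helicase YTHDC2 act in the cytoplasm on decay and translation. ALKBH5 and FTO are demethylases. In growing mouse oocytes YTHDC1 is needed for correct alternative polyadenylation and splicing, and YTHDF2 is needed for maternal transcript dosage.

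The libraries held 17069772 to 17998361 read pairs. Values are FPKM, the read pairs on a gene scaled by the length of the gene and by the total of the library, so they are shares of each library and not amounts per oocyte. An FPKM of 0.167 to 0.176 corresponded to 3 read pairs on a gene of 1 kb. Replicates of a configuration differed by more than counting error, with a chi-square per gene of 7.16 for the NSN pair and 7.93 for the SN pair. Nothing states that the libraries came from separate animals, so p-values measure the spread between these libraries, which may be technical. Each value is an average over 15 oocytes, so fewer oocytes with a transcript and less transcript per oocyte cannot be told apart. The identity of the samples was checked with markers. All 12 oocyte markers were listed, with summed FPKM of 24525 to 26309 in NSN and 17186 to 17925 in SN, and 9 of them were called lower in SN, against 1.98% of all genes tested. That count was 6 with median scaling (1.53% of all genes tested were called lower) and 4 with quantile normalisation (1.34%). It was 0 without a variance trend, where 0 genes of any kind were called. In each of these settings the log2 fold change was above 0 for 0 of the 12 markers, and with quantile normalisation the highest was 0. Without NSN replicate 1 or SN replicate 2 fewer of all genes were called, and fewer than 9 of the markers. The log2 fold change stayed below 0 for all 12 markers. Among these, Gdf9, an oocyte growth factor, had FPKM of 5239 and 4929 in NSN and 2575 and 2289 in SN. Of 12 granulosa and cumulus cell markers 7 were listed, with summed FPKM of 9.29 to 13.0 in NSN and 13.0 to 13.5 in SN, and 0 of the 4 tested were called. Cyp19a1 was the highest of them (FPKM 5.81 and 8.06 in NSN and 8.38 and 8.22 in SN), Fshr, Inha, Inhba, Cyp11a1, Nr5a2 and Kitl were also listed, and Amh, Amhr2, Foxl2, Inhbb and Wt1 were not. Of the read pairs, 39.8% and 38.7% in NSN and 35.4% and 35.3% in SN fell on the 100 most abundant genes. The median log2 fold change (SN minus NSN) of all 11672 genes tested was 0.14 rather than 0. Scaling the libraries to the median gene changed several calls, as given with them. The part of the marker differences in the results was not tested.

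The protocol primes at the poly(A) tail, so the 3′ ends of canonical transcripts are shown for Ythdc1, the gene called below, and for the 3 Ythdf genes with which its level is compared, from the GENCODE M39 annotation on GRCm39. Each sequence is 30 bases of the last exon written 5′ to 3′ as in the transcript. The capitals mark the poly(A) signal, the hexamer that directs cleavage and polyadenylation.
Ythdc1, chr5:86985037-86985066, plus strand: aagactgcagtcATTAAAtggaggagtgat
Ythdf1, chr2:180546172-180546201, minus strand: aatacaagccttAATAAAcacctgttgagc
Ythdf2, chr4:131911105-131911134, minus strand: ctgcataaacatAATAAAgttacccaaacc
Ythdf3, chr3:16271169-16271198, plus strand: tttgagggtttcAATAAAaattgttcactc
The signal starts 32 bases before the annotated end in Ythdc1, 25 in Ythdf1, 58 in Ythdf2 and 21 in Ythdf3. In the last 100 bases of the canonical transcript, read as in the transcript only, AATAAA was present in 9 of the 10 genes and in 60.3% of 21563 transcripts of all genes. Ythdc1 was the exception, without AATAAA and with the variant ATTAAA. Fto held ATTAAA as well as AATAAA. The variant was present in 19.3% of all transcripts, a share that includes transcripts with AATAAA. The cytoplasmic polyadenylation element TTTTAT, through which stored oocyte transcripts are known to be regulated, was found in Mettl14 and Wtap, and in 12.2% of all transcripts. The longer element TTTTAAT was found in 0 of the 10 genes and in 4.61% of all transcripts. These are matches of letters in an annotated window and not measured sites.

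The m6A genes covered a wide range of expression in GV oocytes. Alkbh5 was the most abundant, with a mean FPKM of 62.0 over the 4 libraries, and 93.8% of the listed genes had a lower mean. Ythdf2 (28.8), Wtap (28.8), Mettl3 (27.9) and Ythdf3 (24.3) followed, and the library values of each neighbouring pair in this order overlapped. The place of Ythdf2 in this order differed by configuration, since its mean was the highest of these 4 in NSN (34.8) and the lowest in SN (22.8, against 30.1 for Wtap, 28.6 for Mettl3 and 26.4 for Ythdf3). Ythdc1 came next with a mean FPKM of 13.8, then Mettl14 with 5.27, and each was apart from its neighbours in every library. Ythdc2 (2.34) and Ythdf1 (2.29) were not separated from each other. Fto was the lowest, with a mean FPKM of 0.216, and 17.5% of the listed genes had a lower mean. FPKM are per length, so these levels can be compared between genes, with the limit that the gene lengths recovered from the values were 0.464 to 0.977 times the summed exons of the basic annotation.

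**Figure D1:**
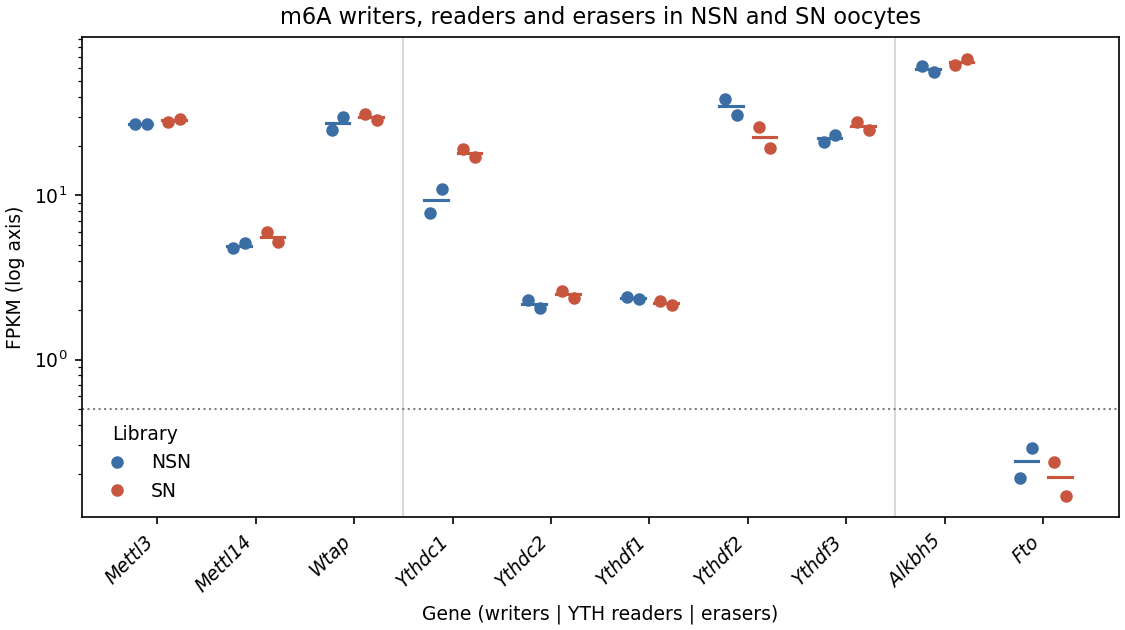
FPKM of the 10 m6A genes on a log axis. Points are single libraries (2 NSN in blue, 2 SN in red), short bars are the means of the 2 libraries, grey lines separate writers, readers and erasers, and the dotted line is the mean FPKM of 0.5 below which a gene was not tested. Ythdc1 lies higher in both SN libraries (19.2 and 17.2) than in both NSN libraries (7.86 and 10.9), Ythdf2 lies lower in both SN libraries, and Fto lies below the dotted line in all 4.

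Across the configurations, 1 of the 9 m6A genes tested was called, and it was higher in SN. A call required a Benjamini-Hochberg adjusted p below 0.05 in limma, over all genes tested, and a fold change of at least 1.2. Of all 11672 genes tested, 7.93% were called, 5.95% as higher and 1.98% as lower in SN. The log2 fold change was above 0 for 7 of the 9 genes and its median was 0.16, against 0.14 over all genes tested. An unadjusted limma p below 0.05 was seen in 2 of the 9, against 31.7% of all genes tested. After median scaling 0 of the 9 were called, against 2.2% of all genes tested. The unadjusted limma p was then below 0.05 in 2 of the 9, against 27.1% of all genes tested. The log2 fold change after this scaling was above 0 for 5, and the median was 0.0045 in these genes and 0.0051 over all genes. Both SN libraries lay above both NSN libraries for 6 of the 9 genes and below them for 2. Over all genes tested the same separation was seen in 44.8% (above) and 17.8% (below), or 62.6% together. With a single value, an exact permutation test of 2 against 2 libraries cannot go below a two-sided p of 0.333.

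Among the writers, none of the 3 genes was called, and 0 had an unadjusted limma p below 0.05. Mettl3 (ENSMUSG00000022160.20, chr14:52531551-52542608, minus strand) had FPKM of 27.1 and 27.4 in NSN and 28.2 and 29.1 in SN. These came from 956 to 1060 read pairs, and its log2 fold change was 0.07 (SE 0.09, 95% interval -0.13 to 0.28, limma adjusted p = 0.60). The 4 libraries were close to each other for this catalytic subunit. The exons of all annotated Mettl3 transcripts cover 6765 bases, and 34.1% of these overlap Tox4 on the opposite strand. The gene length recovered from the FPKM was 2025 bases, so this share need not hold for the bases counted. Counting ignored strand, and the effect of the overlap on these values was not tested. Mettl14 (ENSMUSG00000028114.18, chr3:123154348-123179757, minus strand), the RNA-binding partner, had FPKM of 4.76 and 5.10 in NSN and 6.01 and 5.18 in SN. Its log2 fold change was 0.16 (SE 0.13, adjusted p = 0.42), and the gap between the nearest NSN and SN libraries was small beside the gap between the SN libraries. Wtap (ENSMUSG00000060475.15, chr17:13184295-13213056, minus strand), the anchor of the complex, had FPKM of 25.0 and 29.9 in NSN and 31.1 and 29.0 in SN, and the groups overlapped. Its log2 fold change was 0.13 (SE 0.11, adjusted p = 0.45). Under a median scaling of the libraries the log2 fold changes were -0.08 for Mettl3 and -0.02 for Wtap, so no direction is given for either gene.

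The writers kept similar proportions to each other in all libraries. Mettl3 made up 43.2% to 47.7% of the summed FPKM of the 3 writers, Wtap 44.0% to 48.0% and Mettl14 8.18% to 9.20%. Within a library a ratio of genes does not depend on how that library is scaled. The ratio of Mettl14 to Mettl3 was 0.176 and 0.186 in NSN and 0.213 and 0.178 in SN, and that of Wtap to Mettl3 was 0.922 and 1.09 in NSN and 1.10 and 0.997 in SN. Both ratios overlapped between the configurations.

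Ythdc1 (ENSMUSG00000035851.16, chr5:86951957-86985080, plus strand), the nuclear reader, rose in SN oocytes. Its FPKM were 7.86 and 10.9 in NSN and 19.2 and 17.2 in SN, from 452, 646, 1083 and 1025 read pairs. Mean FPKM were 9.38 ± 2.16 (SD, n = 2) for NSN oocytes and 18.2 ± 1.39 (SD, n = 2) for SN oocytes, a ratio of 1.94. The lowest SN library lay well above the highest NSN library, although the NSN libraries also differed from each other. The log2 fold change was 0.94 (SE 0.16, 95% interval 0.55 to 1.33, limma adjusted p = 0.038), and 98.5% of the genes tested had a smaller absolute change. Under other settings with all libraries the log2 fold change was 0.75 to 0.97 and the adjusted p lay between 0.0011 and 0.092, and Ythdc1 was called in 7 of 15 settings when those that leave out a library are included. The call was lost with median scaling (adjusted p = 0.054, with 2.2% of all genes called), quantile normalisation (0.054), no variance trend (0.092), all listed genes (0.056) and totals without the 100 most abundant genes (0.052). It was also lost without NSN replicate 1 (0.075, with 0 of all genes called), SN replicate 1 (0.079, with 153 called) or SN replicate 2 (0.088, with 12 called), and with no variance trend or with all listed genes 0 of all genes were called either. Of the bases in the exons of all annotated Ythdc1 transcripts, 5.75% lie within exons of other genes.

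Ythdc2 (ENSMUSG00000034653.13, chr18:44960813-45022791, plus strand) encodes the YTH helicase that germ cells need to enter and pass through meiotic prophase. It was expressed at a low level, with FPKM of 2.31 and 2.05 in NSN and 2.62 and 2.36 in SN, from 265 to 323 read pairs. The SN libraries lay just above the NSN libraries, with a log2 fold change of 0.16 (SE 0.15, 95% interval -0.20 to 0.52, limma adjusted p = 0.49). The ratio of Ythdc2 to Ythdc1 within a library was 0.294 and 0.188 in NSN and 0.137 in both SN libraries. This ratio was lower in SN by 0.78 on average on the log2 scale, and by 0.46 to 1.10 when each library was left out in turn.

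Of the 3 cytoplasmic readers 0 were called in limma, and 1 had an unadjusted p below 0.05, which was Ythdf2. Ythdf2 (ENSMUSG00000040025.19, chr4:131911065-131939614, minus strand), which recruits deadenylases to methylated transcripts, had FPKM of 38.8 and 30.9 in NSN and 26.2 and 19.4 in SN. These came from 2789, 2283, 1844 and 1443 read pairs. The highest values were those of the NSN libraries, and the groups did not overlap. Means were 34.8 ± 5.61 (SD, n = 2) for NSN oocytes and 22.8 ± 4.77 (SD, n = 2) for SN oocytes, so that NSN exceeded SN by a ratio of 1.53. The log2 fold change was -0.61 (SE 0.17, 95% interval -1.01 to -0.20), and with a limma adjusted p of 0.070 it did not pass the threshold. It was called in 4 of 11 other settings with all libraries. These included a limma test restricted to mean FPKM of 5 or more (adjusted p = 0.028, with 27.1% of all genes called). They also included limma voom on recovered read pairs (adjusted p = 0.0072, with 19.7% called). Ythdf2 was not called with pseudocounts of 0.1 (limma adjusted p = 0.075, with 6.62% of all genes called) or 1 (0.068, with 8.1% called). The same held for median scaling (0.068, with 2.2% called) and quantile normalisation (0.068, with 1.97% called). It also held for totals without the 100 most abundant genes (0.073, with 1.6% called). With all listed genes (0.10) or no variance trend (0.13) Ythdf2 was not called, and 0 of all genes were. With each library left out in turn, its log2 fold change lay between -0.82 and -0.40.

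Ythdf3 (ENSMUSG00000047213.16, chr3:16237297-16271201, plus strand), which acts with the other YTHDF proteins in translation and decay, had FPKM of 21.1 and 23.4 in NSN and 27.9 and 25.0 in SN. The SN libraries lay above the NSN libraries, and the difference was not called (log2 fold change 0.24, SE 0.11, 95% interval -0.01 to 0.50, limma adjusted p = 0.17). Ythdf1 (ENSMUSG00000038848.16, chr2:180546165-180562815, minus strand), known for promoting translation of methylated transcripts, was scarce. Its FPKM were 2.41 and 2.33 in NSN and 2.28 and 2.14 in SN, from 126 to 137 read pairs. The log2 fold change was -0.08 (SE 0.14, 95% interval -0.42 to 0.26, adjusted p = 0.73).

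**Figure D2:**
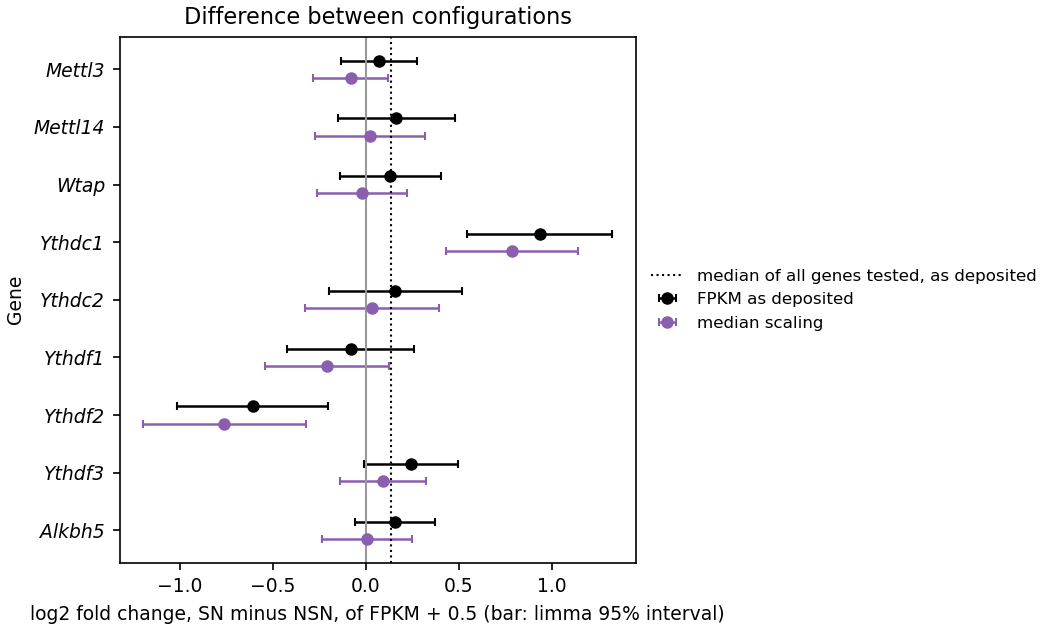
Log2 fold change (SN minus NSN) of FPKM + 0.5 for the 9 m6A genes tested, with 95% intervals from limma, as deposited (black) and after median scaling (purple). The dotted line is the median of all genes tested as deposited, 0.14. Ythdc1 (0.94) and Ythdf2 (-0.61) lie apart from the other genes, whose values as deposited run from -0.08 to 0.24.

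The share of each gene in the YTH reader transcripts is given as a description, with no test. The summed FPKM of the 5 readers were 72.5 and 69.6 in NSN and 78.2 and 66.1 in SN, and overlapped. Ythdf2 contributed 53.5% and 44.4% of this sum in NSN and 33.5% and 29.4% in SN. Ythdc1 contributed 10.8% and 15.7% in NSN and 24.5% and 26.1% in SN. Ythdf3 contributed 29.1% and 33.6% in NSN and 35.7% and 37.7% in SN. In these FPKM it was the largest fraction in both SN libraries, whereas Ythdf2 was the largest in both NSN libraries. Which gene holds the largest fraction depends on the gene lengths behind the FPKM. Ythdc2 and Ythdf1 each stayed between 2.91% and 3.58%.

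**Figure D3:**
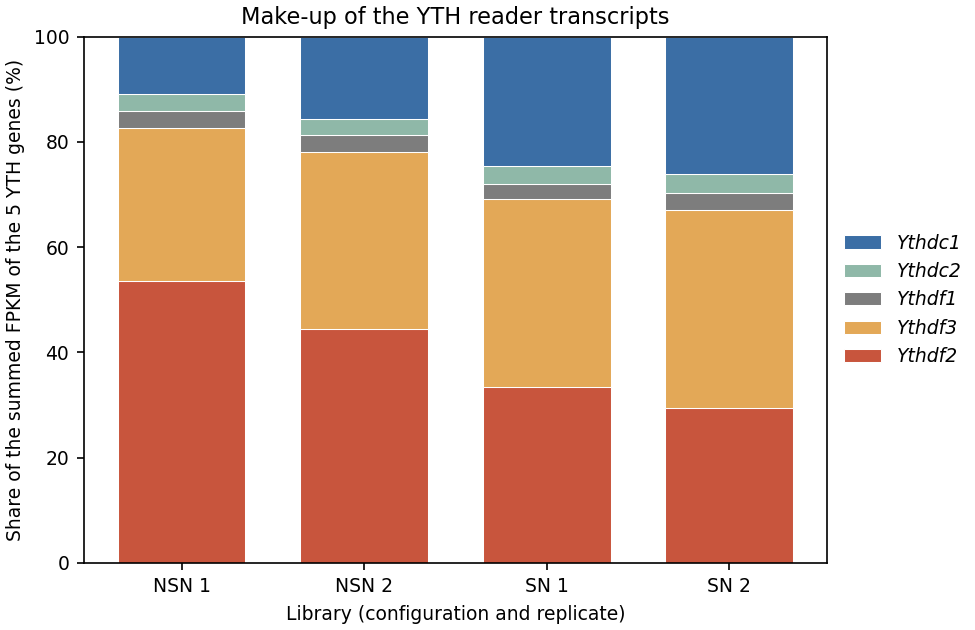
Share of the summed FPKM of the 5 YTH readers held by each gene, in percent, for each of the 4 libraries. The Ythdf2 share (red) is 53.5% and 44.4% in NSN and 33.5% and 29.4% in SN, and the Ythdc1 share (blue) is 10.8% and 15.7% in NSN and 24.5% and 26.1% in SN.

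Ratios within libraries give the same FPKM in another form and add no independent evidence. The ratio of Ythdf3 to Ythdf2 was 0.544 and 0.758 in NSN and 1.07 and 1.29 in SN, a log2 difference of 0.87 (0.63 to 1.11 when each library was left out in turn). In these FPKM Ythdf3 was thus below Ythdf2 in both NSN libraries and above it in both SN libraries. The recovered gene length was 0.464 times the summed exons of the basic annotation for Ythdf3 and 0.758 times for Ythdf2. Which gene is higher depends on these lengths, whereas the change of the ratio between configurations does not. The ratio of Ythdf1 to Ythdf2 was 0.0621 and 0.0753 in NSN and 0.0871 and 0.110 in SN, a log2 difference of 0.52 (0.35 to 0.69). A further ratio, of Ythdc1 to Ythdf2, was chosen after its values were seen. It was 0.202 and 0.354 in NSN and 0.734 and 0.887 in SN, a log2 difference of 1.59 (1.19 to 1.99). Of the other 6 ratios computed, 3 did not overlap between the configurations, and 62.6% of single genes tested did not overlap either.

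Between the erasers the difference in level was large in every library. Alkbh5 (ENSMUSG00000042650.5, chr11:60427207-60449346, plus strand), a nuclear demethylase that is required for male fertility, had FPKM of 61.1 and 56.1 in NSN and 62.7 and 68.2 in SN. These rest on 5759 to 7032 read pairs, the most of any of the 10 genes. The SN libraries lay above the NSN libraries, with a log2 fold change of 0.16 (SE 0.09, 95% interval -0.06 to 0.37, limma adjusted p = 0.27), close to the median of all genes tested. Fto (ENSMUSG00000055932.17, chr8:92039953-92395070, plus strand), the demethylase that also acts on other methylated adenosines, had FPKM of 0.190 and 0.289 in NSN and 0.237 and 0.148 in SN. It was read by 41, 64, 50 and 33 pairs, and the configurations overlapped. Exact Poisson 95% intervals of these FPKM were 0.137 to 0.258, 0.222 to 0.369, 0.176 to 0.312 and 0.102 to 0.208, and they cover counting error only. Fto was below the mean FPKM of 0.5 needed for the test. When all listed genes were tested its log2 fold change was -0.09 (limma adjusted p = 0.71). Alkbh5 exceeded Fto 321 and 194 times in NSN and 265 and 460 times in SN.

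Other genes of the pathway were examined as lists of 31 genes by role, of which 30 were listed (Igf2bp1 was not) and 26 were tested. Rbmx, Prrc2a, Meioc and Rbm46 were below the filter. Of the 26 tested, 3 were called higher and 0 lower in SN, against 5.95% and 1.98% of all genes tested. The count at an unadjusted p below 0.05 was 12 of 26, against 31.7% of all genes tested, and the median log2 fold change was 0.18, against 0.14 over all genes. Both SN libraries lay above both NSN libraries for 17 of the 26 and below them for 4, against 44.8% and 17.8% of all genes tested. With median scaling, 0 of the 26 were called in limma (2.2% of all genes were), and 8 had an unadjusted p below 0.05, against 27.1% of all genes. With voom and median scaling 4 were called higher and 3 lower, against 6.38% and 8.25% of all genes tested. The 3 called lower were Igf2bp3, Mat2a and Mat2b. Leaving out NSN replicate 1, SN replicate 1 or SN replicate 2 left 0 called, and leaving out NSN replicate 2 gave 5 (4 higher and 1 lower), with 14.4% of all genes called.

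Of the 5 writer cofactors, Virma was called. Virma, the scaffold that directs the writer complex towards 3′ untranslated regions, had FPKM of 6.36 and 7.09 in NSN and 10.5 and 9.52 in SN (log2 fold change 0.54, SE 0.12, limma adjusted p = 0.047). With median scaling its log2 fold change was 0.39 and the call was lost (adjusted p = 0.085). Zc3h13, which keeps the complex in the nucleus, had 10.7 and 11.6 in NSN and 14.8 and 14.0 in SN, and was not called (log2 fold change 0.36, adjusted p = 0.077). The median of the 5 was 0.24. Of the 5 genes of other N6-adenosine methyltransferases, 0 were called, and 2 had an unadjusted p below 0.05. Mettl5, the 18S ribosomal RNA methyltransferase, had FPKM of 1.90 and 1.96 in NSN and 3.81 and 2.70 in SN (log2 fold change 0.61, limma adjusted p = 0.081). Mettl5 was read by only 32 and 34 pairs in NSN and 63 and 47 in SN. Its cofactor Trmt112 had 20.7 and 23.4 in NSN and 19.1 in both SN libraries (log2 fold change -0.20, adjusted p = 0.23).

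Among 6 tested genes of other proteins found on m6A-bearing RNA, Hnrnpa2b1 was called. This nuclear splicing and microRNA-processing factor had FPKM of 60.2 and 61.9 in NSN and 89.7 and 84.1 in SN (log2 fold change 0.50, SE 0.08, limma adjusted p = 0.036). Median scaling gave 0.35 and no call (adjusted p = 0.063). Hnrnpc, the most abundant of them, had 123 and 125 in NSN and 135 and 142 in SN (log2 fold change 0.16, adjusted p = 0.19). Of 7 tested partners of the YTH proteins, Srsf10 was called. SRSF10, a splicing factor that binds YTHDC1, had transcript FPKM of 16.5 and 17.4 in NSN and 25.2 and 25.8 in SN (log2 fold change 0.58, SE 0.09, limma adjusted p = 0.036). After median scaling it was 0.43 and not called (adjusted p = 0.058). Srsf3, which encodes the other splicing factor bound by YTHDC1, had a log2 fold change of 0.0059 (adjusted p = 0.97). Rida, the bridge between YTHDF2 and an RNase complex, had FPKM of 26.3 and 30.3 in NSN and 33.8 and 36.4 in SN and was not called (log2 fold change 0.31, adjusted p = 0.10). The median of the 7 partners was 0.34.

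The genes of the S-adenosylmethionine cycle, which supplies the methyl group, included 0 of 3 that were called in limma, and 2 with an unadjusted p below 0.05. Mat2b, the regulatory subunit of the synthetase, had FPKM of 1757 and 1675 in NSN and 1505 and 1433 in SN (log2 fold change -0.22, limma adjusted p = 0.087). Mat2a, the catalytic subunit and itself a known METTL16 target, had 22.7 and 18.9 in NSN and 17.2 and 15.3 in SN (log2 fold change -0.34, adjusted p = 0.12). In both genes the SN libraries lay below the NSN libraries.

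**Figure D4:**
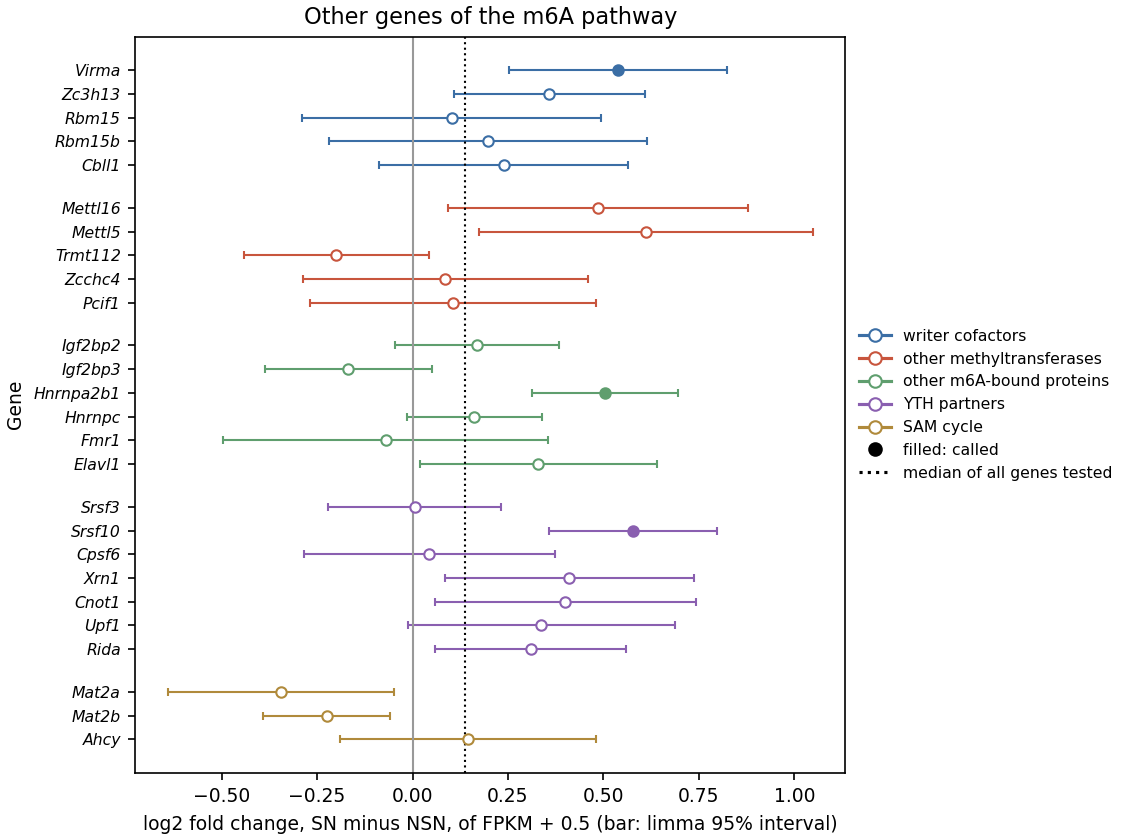
Log2 fold change (SN minus NSN) of FPKM + 0.5 with 95% intervals from limma for the 26 other pathway genes tested, coloured by list. Filled points are the 3 genes called (Virma 0.54, Hnrnpa2b1 0.50 and Srsf10 0.58), and the dotted line is the median of all genes tested, 0.14.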

How the data were processed

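RNA-seq libraries of 2 NSN and 2 SN samples were compared. Per the labels and the methods, the authors trimmed reads with Trim Galore 0.6.10, aligned to GRCm39 (HISAT2), assigned pairs to GENCODE exons with featureCounts, ignoring strand, and deposited FPKM made with a script of their own. The submitters' notes also name DESeq2. The labels speak of 3 samples per group, and 2 were analysed here.

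Values were taken as log2(FPKM + 0.5). Those 11672 of 16861 genes whose mean FPKM reached 0.5 were tested with limma 3.58.1 in R 4.3.3 (lmFit, eBayes with a variance trend, two-sided, no covariates). Fold changes on this scale understate the change of low genes. P-values were Benjamini-Hochberg adjusted over all genes tested. Library totals and whole read pairs were recovered from the FPKM with 5 mitochondrial tRNA genes and the smallest gene length that gave whole pairs in all 4 libraries. A multiple of that length would multiply the pairs, and 99.9% of genes came out whole within 0.0001. Poisson intervals and detection limits cover counting error only, whereas the limma intervals use the spread between libraries. Gene positions came from GENCODE M39, a later release than the authors' on the same build. Other values used Python 3.11.15, numpy 2.4.6, pandas 2.3.3, scipy 1.17.1 and matplotlib 3.10.9.

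Members and gene lists were chosen with earlier results of these data known. The genes named are the 10 members and, of each other list, those called and the 2 with the highest mean FPKM. Gdf9 is an oocyte marker, and Srsf3, outside this rule, was chosen after its value was seen. Alternatives were other pseudocounts (0.1, 1), filters (none, mean FPKM of at least 5), median scaling, quantile normalisation, the replicate number as a block, no variance trend, voom on recovered read pairs, and each library left out. Totals without the 100 most abundant genes were added after seeing the data.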

Additional observations from a re-analysis of the deposited data

How the results depend on the processing

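The number of m6A genes called, 1 as reported, stayed at 1 with pseudocounts of 0.1 and 1. It was 0 with all listed genes, median scaling, quantile normalisation, no variance trend and totals without the 100 most abundant genes, 2 with only the genes of mean FPKM 5 or more, the replicate block, voom and voom with median scaling, and 0 to 2 with a library left out (2 without NSN replicate 2, 0 without each of the others). For the other pathway genes, 3 as reported, the same settings gave 0 for all listed genes, median scaling, quantile normalisation, no variance trend and totals without the 100 most abundant genes, 7 for voom (all higher in SN) and 7 for voom with median scaling (4 higher, 3 lower), and 0 to 5 with a library left out. Over all genes, 926 as reported (75.1% higher in SN), calls numbered 0 with all listed genes (4092 at an unadjusted p below 0.05 in limma) and 0 without the variance trend (3449 unadjusted). They were 1496 (78.1% higher) for mean FPKM of 5 or more, 257 (30.4% higher) with median scaling, 230 (32.2%) with quantile normalisation, 187 (39.0%) with totals without the 100 most abundant genes, 2297 (76.8%) with voom and 1706 (43.6%) with voom and median scaling. With a library left out they ran from 0 (without NSN replicate 1, 2278 unadjusted) to 1680 (without NSN replicate 2), with 153 without SN replicate 1 and 12 without SN replicate 2. The remaining lone library is then assumed to vary like the pair of the other group. The replicate numbers share only a number: the correlation of same-numbered deviations was -0.07. With that number as a block, 2 m6A genes, 2 other pathway genes and 422 genes in all (63.0% higher) were called.

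The log2 fold change of Mettl3 was -0.0812 with median scaling, -0.0690 with quantile normalisation, -0.0820 with voom and median scaling and -0.0173 after leaving the 100 most abundant genes out of the totals, and that of Wtap was -0.0187 with median scaling and -0.0201 with voom and median scaling. The cause was not tested. Of 297 values of named genes under other settings, 245 kept direction and side of the threshold, 36 lost and 10 gained the call, and 6 turned sign. The 3 ratios apart between configurations stayed 3 with FPKM + 0.5 and were 4 to 5 with a library left out, where a lone library separates more easily. Of the 10 m6A genes, depth limits Fto most, with 33 to 64 read pairs. Of the other pathway genes, Mettl5 also rests on only 32 to 63 read pairs.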
